A study of Homo sapiens with 6 samples.

Results

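Collagens and the enzymes that modify them were examined in T24 cells with and without ox-LDL. T24 is an established line from a human bladder carcinoma, and ox-LDL is low-density lipoprotein, a cholesterol carrier of plasma, in oxidized form. The set was chosen by gene symbol: every probe set named for a collagen chain, a lysyl oxidase, a collagen prolyl 4-hydroxylase α subunit or a lysyl hydroxylase, together with SERPINH1 and SPARC. It held 54 probe sets for 54 genes, of 21448 tested: 41 collagen chains, 12 genes for modifying enzymes and chaperones, and 1 antisense RNA, COL18A1-AS1. SPARC, a secreted protein that binds collagen, was counted among the 12 throughout. No tested probe set carried the symbol COL3A1, COL7A1, COL17A1 or LOXL2, so those genes were not examined. The OXLDL arrays held RNA of 3 samples kept for 24 h with 20 µg/mL of ox-LDL, and the CON arrays RNA of 3 samples given vehicle for the same time. Both groups had been grown with 10% fetal bovine serum and then kept without serum for 12 h. The study set OXLDL against CON, and here the question was which collagen and collagen-modifying transcripts differed. Separate cultures are not stated for the samples of a group, so each p-value rests on the spread among these samples alone, and that spread may be technical.

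Collagens are proteins of 3 chains wound into a triple helix. In the endoplasmic reticulum, prolyl hydroxylases and lysyl hydroxylases modify the new chains, and the chaperone encoded by SERPINH1 (HSP47) binds the folded helix. After secretion, lysyl oxidases turn lysines of collagen and elastin into reactive aldehydes that cross-link the fibres. Fibroblasts are the main makers of fibrillar collagens in the bladder wall, and carcinoma cells make some chains, cross-linking enzymes and basement membrane collagens of their own.

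One free-text label named siRNA against G9a, in place of ox-LDL, and control siRNA; every other field that gives a treatment, the titles included, named ox-LDL or vehicle, and the groups follow those. The G9a gene, EHMT2, read 8.34, 8.26 and 8.06 (log2) on OXLDL arrays and 8.005, 7.91 and 7.63 on CON arrays, so it was not lower with OXLDL. Its difference of 0.37 (SE 0.12) did not pass (limma adjusted p = 0.125). Array medians lay between 7.11 and 7.18 on the log2 scale. CON replicate 3 stood apart: across probe sets its correlation with the other arrays was 0.979 to 0.988, against 0.992 to 0.997 among the other 5. The 5 background probe sets richest in G and C averaged 7.90 on that array, against 7.32 to 7.43 on the others. The line's keratin genes KRT7, KRT8 and KRT18 averaged 12.25, 12.20 and 11.91 on OXLDL arrays, and 11.97, 12.10 and 11.89 on CON arrays. The urothelial markers UPK1B and UPK3A and the epithelial cadherin CDH1 did not exceed 5.09 in either group, a level that 95% of negative control probe sets do not pass (called the negative control level here). The other markers of that list were above it, among them UPK2, GATA3 and EPCAM, which averaged 6.41, 6.95 and 5.61 on OXLDL arrays and 6.61, 7.14 and 5.48 on CON arrays, and KRT5. With all arrays 0 of 11 urothelial and epithelial and 0 of 3 mesenchymal markers passed the limma test (1 and 2 had an unadjusted p under 0.05). Without CON replicate 3, KRT7 (adjusted p = 0.0290) and the mesenchymal marker CDH2 (0.0248) passed as higher. The other mesenchymal markers, ZEB1 and VIM, had differences of -0.19 and -0.07 with all arrays, and of -0.18 and -0.07 without that array. The level of the urothelial and epithelial markers, summed on the linear scale, was mostly that of KRT7, KRT8 and KRT18. It did not overlap between the groups, at log2 values of 13.78 to 13.80 on OXLDL arrays and 13.59 to 13.71 on CON arrays. Of all tested probe sets, 36.8% did not overlap. The list's median difference was 0.025, with GATA3, UPK2, CDH1, UPK1B and UPK3A below 0 and the others above 0. The part of the summed level in the results below was not tested. Of 9 fibroblast, 4 endothelial and 4 leukocyte markers 0 passed in limma, with or without CON replicate 3 (2, 1 and 0 had an unadjusted p under 0.05). Their summed levels overlapped between the groups: fibroblast markers lay at 8.50 to 8.62 on OXLDL arrays and 8.53 to 8.89 on CON arrays, endothelial markers at 8.11 to 8.26 on OXLDL arrays and 8.15 to 8.57 on CON arrays, and leukocyte markers at 8.32 to 8.38 on OXLDL arrays and 8.31 to 8.58 on CON arrays. Of the 9 fibroblast markers, LUM, POSTN, FAP and DPT lay at or below the negative control level in both groups. The other 5 were above it: DCN averaged 5.28 on OXLDL arrays and 5.60 on CON arrays, THY1 5.48 on OXLDL arrays and 5.86 on CON arrays, and PDGFRA, PDGFRB and ACTA2 lay at 5.69, 5.72 and 7.01 on OXLDL arrays and at 5.78, 5.83 and 7.06 on CON arrays.

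In the set, LOX fell more than 2-fold, COL24A1 fell, and SPARC and COL12A1 rose, and 50 members did not pass. These 4 of 54 called members are 7.41%, against 6.77% of all tested probe sets (limma, Benjamini-Hochberg adjusted p under 0.05), a share near the background. Of the 12 enzyme and chaperone genes 1 rose, SPARC, and 1 fell, LOX, so no modifying enzyme passed as higher. Of the 41 chains 1 rose and 1 fell, with 3.48% of all probe sets higher and 3.29% lower. An unadjusted p under 0.05 was found for 15 of the 54, against 26.1% of all probe sets. The design text's own selection, p at or below 0.001 with at least a 1.5-fold change, kept LOX alone of the 54, and took 2.31% of all probe sets. A log2 value depends on each probe set's own brightness, so levels are compared between arrays and not between genes. In a culture, fewer cells of a kind and less RNA per cell cannot be told apart.

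The promoters of the 4 genes that passed are shown because these genes carry the differences. Each run is from RefSeq (GRCh38.p14), 5′ to 3′ on the gene's own strand, and covers 250 bases before the annotated start and 50 after it. LOX is at chr5:122078210-122078509, SPARC at chr5:151686866-151687165, COL12A1 at chr6:75206004-75206303 and COL24A1 at chr1:86156723-86157022, all on the minus strand. Capitals mark matches, on either strand, to the TATA box motif TATAAA, the CCAAT box motif, the GC box motif GGGCGG, the AP-1 motif TGANTCA and the motif ACGTG, the core bound by hypoxia-inducible factors.
LOX: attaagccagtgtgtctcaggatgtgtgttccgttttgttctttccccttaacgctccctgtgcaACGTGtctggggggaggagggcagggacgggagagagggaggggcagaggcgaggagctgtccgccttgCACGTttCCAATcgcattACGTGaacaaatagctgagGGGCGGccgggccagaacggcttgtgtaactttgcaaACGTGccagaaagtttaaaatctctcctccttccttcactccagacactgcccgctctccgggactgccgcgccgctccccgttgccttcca
SPARC: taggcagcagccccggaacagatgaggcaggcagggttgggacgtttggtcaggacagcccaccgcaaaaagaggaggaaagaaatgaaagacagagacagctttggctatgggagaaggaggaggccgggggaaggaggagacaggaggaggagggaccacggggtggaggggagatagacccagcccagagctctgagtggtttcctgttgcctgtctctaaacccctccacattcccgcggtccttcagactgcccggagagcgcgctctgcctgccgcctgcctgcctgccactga
COL12A1: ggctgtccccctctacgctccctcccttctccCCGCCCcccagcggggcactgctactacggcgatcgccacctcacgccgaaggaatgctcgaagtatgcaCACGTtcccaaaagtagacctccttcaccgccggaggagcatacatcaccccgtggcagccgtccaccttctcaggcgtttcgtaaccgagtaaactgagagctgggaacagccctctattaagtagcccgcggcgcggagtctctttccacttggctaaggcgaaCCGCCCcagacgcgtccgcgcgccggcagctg
COL24A1: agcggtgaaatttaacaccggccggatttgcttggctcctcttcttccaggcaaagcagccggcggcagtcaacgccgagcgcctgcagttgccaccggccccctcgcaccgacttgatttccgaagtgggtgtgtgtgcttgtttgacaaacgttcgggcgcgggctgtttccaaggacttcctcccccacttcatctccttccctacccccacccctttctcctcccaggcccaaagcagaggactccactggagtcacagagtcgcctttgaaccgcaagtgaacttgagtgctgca

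The LOX window held 4 matches to ACGTG, with first bases at -185, -116, -98 and -42 from the gene's start, beside 1 CCAAT and 1 GGGCGG. Of all 35116 promoter windows, 0.843% held 4 or more ACGTG, and LOX was the only 1 of the 42 members with a RefSeq promoter to do so. The cut-off of 4 is the count of LOX itself, which was shown because it passed. That share is thus a description and no test. The SPARC and COL24A1 windows held none of the 5 motifs, and COL12A1 held GGGCGG at 2 places and ACGTG at 1. GGGCGG lay in 23 of 42 member windows, against 45.0% of all windows, and ACGTG in 9 of 42, against 21.4%. TGANTCA was in 0 of 42 and in 7.71% of all windows. TATAAA was in 4 of 42 (11.5% of all) and CCAAT in 13 of 42 (34.6%). These are matches of letters in short windows, and neither show nor exclude the binding of a factor.

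LOX encodes lysyl oxidase, the copper-dependent amine oxidase that starts collagen and elastin cross-links. Its log2 values were 8.31, 8.25 and 8.37 on OXLDL arrays, against 9.71, 9.31 and 9.30 on CON arrays. The groups did not overlap, and the 3 OXLDL arrays lay close together, with CON replicate 1 the highest. The mean was 8.31 ± 0.06 with OXLDL and 9.44 ± 0.23 in CON (SD, n = 3 each), a 2.19-fold fall (log2 difference -1.13, SE 0.12, 95% confidence interval -1.43 to -0.84, limma adjusted p = 0.00451). By size it was the 61st largest fall of the 21448 probe sets. LOX was the only member past 2-fold, a change seen in 0.690% of all tested probe sets. It passed in each of the 14 alternative fits, including each that left out 1 array, with log2 differences between -1.203 and -0.998.

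The other lysyl oxidases measured, LOXL1, LOXL3 and LOXL4, did not pass. LOXL1, which is needed for elastic fibres, had values of 4.02, 4.01 and 3.98 on OXLDL arrays, against 4.24, 4.44 and 4.001 on CON arrays, all below the negative control level of 5.09. Its difference was -0.22 (SE 0.12, adjusted p = 0.270), or -0.33 without CON replicate 3, where it passed (adjusted p = 0.0456). LOXL3 and LOXL4, further amine oxidases of the family, had log2 differences of -0.09 and -0.06. The intervals of LOXL1, LOXL3 and LOXL4 (-0.50 to 0.05, -0.30 to 0.11 and -0.38 to 0.26) did not reach the interval of LOX. LOXL4 too lay at or below the negative control level in both groups.

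SPARC (osteonectin) is a secreted glycoprotein that binds collagen and affects its deposition. Its log2 values were 10.57, 10.56 and 10.52 on OXLDL arrays, against 10.07, 10.19 and 10.04 on CON arrays. All OXLDL arrays were above all CON arrays. SPARC rose 1.37-fold (log2 difference 0.45, SE 0.07, 95% confidence interval 0.28 to 0.63, limma adjusted p = 0.0173). Its call was lost without any 1 OXLDL array (adjusted p = 0.0983, 0.0994 and 0.0843) or without CON replicate 1 (0.0555), with a difference that stayed between 0.39 and 0.50 over all alternatives. SERPINH1, the helix-binding chaperone of the endoplasmic reticulum, had a difference of -0.06 (95% confidence interval -0.23 to 0.12, adjusted p = 0.629).

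Hydroxylases of procollagen did not pass. PLOD2 encodes the lysyl hydroxylase that acts on the ends of collagen chains, where cross-links form. It had log2 values of 12.15, 12.13 and 12.15 on OXLDL arrays and of 11.98, 11.91 and 11.75 on CON arrays. The groups did not overlap, but the difference of 0.26 (SE 0.08, adjusted p = 0.114) missed the threshold. It passed with an intensity trend and robust fit (adjusted p = 0.0155), among the brighter probe sets (0.0419) and with array weights (0.0361), and over the 14 alternatives the difference kept its sign. PLOD1 and PLOD3, the other lysyl hydroxylases, had differences of 0.13 (95% confidence interval -0.03 to 0.29) and 0.03 (-0.17 to 0.24). The catalytic subunits of prolyl 4-hydroxylase, whose product makes the triple helix stable at body temperature, had differences of 0.04 for P4HA1, -0.06 for P4HA2 and -0.14 for P4HA3 (adjusted p = 0.808, 0.667 and 0.521). Their intervals lay within 1.5-fold in either direction, as did those of 10 of the 12 enzyme and chaperone genes, LOX and SPARC being the exceptions.

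**Figure D1:**
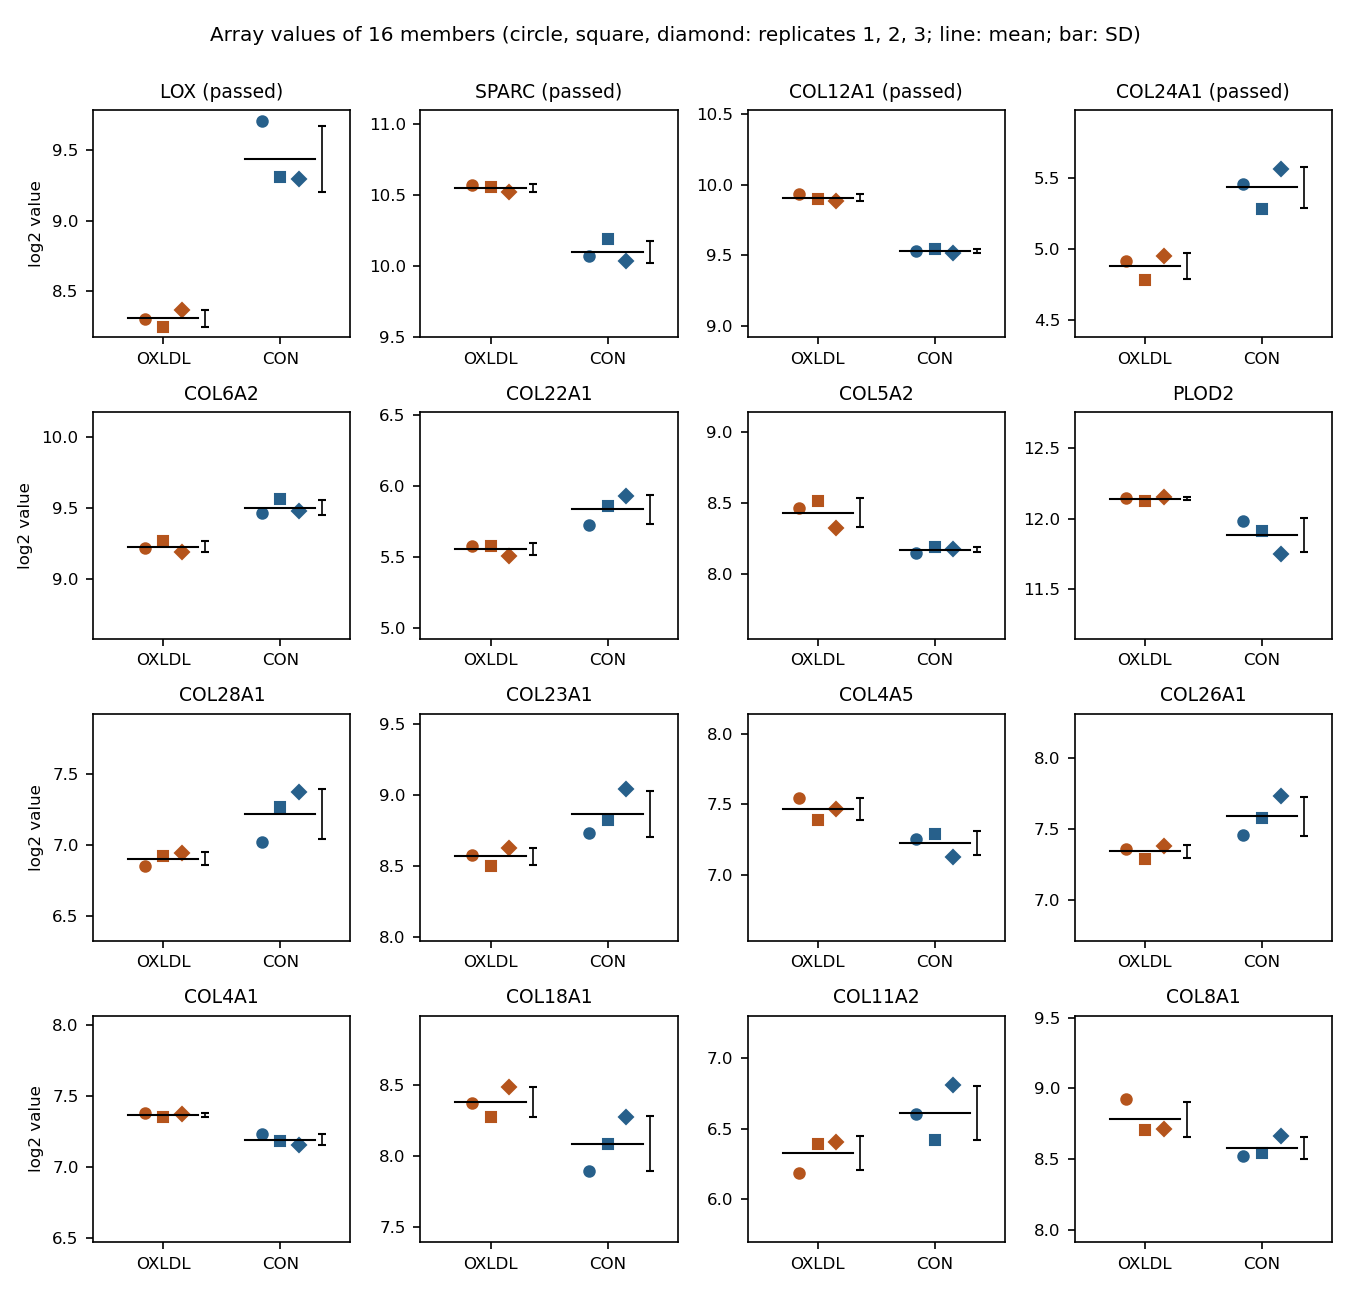
Log2 values (vertical axes) of the 4 members that passed and the 12 others with the smallest p, OXLDL arrays left and CON arrays right, one marker per array with the group mean and SD. LOX lies between 8.25 and 8.37 on OXLDL arrays and between 9.30 and 9.71 on CON arrays, and CON replicate 3 (diamond) is the highest array for COL22A1, COL28A1, COL23A1, COL26A1 and COL11A2.

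Among collagen chains, COL12A1 was the one that rose. It encodes the type XII chain, a fibril-associated collagen that decorates type I fibrils. Its log2 values were 9.93, 9.90 and 9.89 on OXLDL arrays, against 9.53, 9.54 and 9.52 on CON arrays. Both groups were tight and did not overlap. The rise was 1.30-fold (log2 difference 0.38, SE 0.07, 95% confidence interval 0.22 to 0.53, limma adjusted p = 0.0212). The call was lost without any 1 array other than CON replicate 3 (adjusted p = 0.0585 to 0.118), while the difference stayed between 0.31 and 0.41 over all alternatives.

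COL24A1, a fibrillar chain known from developing bone and cornea, was the one that fell. Its log2 values were 4.92, 4.78 and 4.95 on OXLDL arrays, against 5.46, 5.28 and 5.57 on CON arrays. The groups did not overlap, and the OXLDL values lay below the negative control level of 5.09. The fitted log2 difference was -0.55 (SE 0.10, limma adjusted p = 0.0234), with means of 4.88 on OXLDL arrays and 5.43 on CON arrays. Since the OXLDL values lay below the negative control level, the size is only a bound. With them set to that level, the means differed by 1.27-fold. The spread of the CON arrays is not in that bound, and the fitted 95% confidence interval was -0.79 to -0.32. The call was lost without any 1 OXLDL array (adjusted p = 0.0983, 0.115 and 0.0862), without CON replicate 1 (0.0662) and with an unmoderated t statistic (0.0689). Its level is low enough that it was not among the brighter probe sets.

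Of the 10 fibrillar chains measured, 9 did not pass. COL5A2, a chain of the type V collagen that limits fibril width, had values of 8.46, 8.52 and 8.32 on OXLDL arrays and of 8.15, 8.19 and 8.17 on CON arrays. The arrays did not overlap, with a difference of 0.26 (SE 0.08, adjusted p = 0.0977). COL11A2, a cartilage chain, had values of 6.19, 6.39 and 6.40 on OXLDL arrays and of 6.60, 6.42 and 6.80 on CON arrays (difference -0.28, adjusted p = 0.187). The major type I chains COL1A1 and COL1A2 each had a difference of -0.32 (SE 0.16 and 0.18). COL1A1 had 7.38, 7.28 and 7.51 on OXLDL arrays and 7.55, 7.52 and 8.05 on CON arrays, so CON replicate 3 was well above the rest. Without that array the differences of COL1A1 and COL1A2 were -0.14 and -0.11, and that of COL11A2 was -0.19. The remaining fibrillar chains were COL2A1 (-0.25, and -0.11 without CON replicate 3), COL27A1 (-0.18 and -0.062), COL5A1 (-0.052 and 0.061), COL11A1 (0.018 and -0.038) and COL5A3 (0.075 and 0.098).

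None of the 9 network-forming chains of types IV, VIII and X passed in limma (2 had an unadjusted p under 0.05). The type IV chains make the sheet of basement membranes. COL4A1 had values of 7.38, 7.36 and 7.37 on OXLDL arrays, against 7.24, 7.19 and 7.16 on CON arrays, without overlap (difference 0.18, SE 0.07, adjusted p = 0.155). COL4A5 had 7.55, 7.39 and 7.47 on OXLDL arrays, against 7.26, 7.29 and 7.13 on CON arrays, also without overlap (difference 0.24, SE 0.08, adjusted p = 0.126). Testing the brighter probe sets alone put both past the threshold (adjusted p = 0.0473 and 0.0475). COL8A1, a short chain of vessel and corneal matrix, had 8.92, 8.71 and 8.72 on OXLDL arrays and 8.53, 8.55 and 8.67 on CON arrays (difference 0.20, adjusted p = 0.211). COL4A2, COL4A3 and COL4A4 had differences of -0.18, -0.35 and -0.05, COL4A6 and COL8A2 of -0.0055 and 0.0084, and COL10A1, the chain of growth plate cartilage, of -0.24 (SE 0.27). Without CON replicate 3 the differences of COL4A2 and COL4A3 were smaller, at -0.075 and -0.18, and those of COL4A4, COL4A6, COL8A2 and COL10A1 were above 0, at 0.20, 0.11, 0.14 and 0.057. COL4A3, COL8A2 and COL10A1 lay at or below the negative control level in both groups.

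Fibril-associated chains other than COL12A1 did not pass. COL22A1, found at tissue junctions, had 5.58, 5.58 and 5.50 on OXLDL arrays, against 5.72, 5.86 and 5.93 on CON arrays. Those arrays did not overlap (difference -0.28, SE 0.08, adjusted p = 0.0875). COL9A1, COL9A2 and COL9A3, the chains of the type IX collagen of cartilage, had differences of -0.49, -0.33 and -0.22, with standard errors of 0.25, 0.18 and 0.14. Without CON replicate 3 these were -0.31, -0.10 and -0.067. COL20A1 and COL16A1 had differences of -0.30 and -0.15, or -0.15 and -0.14 without that array. COL14A1, COL19A1 and COL21A1 lay at or below the negative control level, with differences of -0.28, -0.22 and 0.043, or -0.23, 0.057 and 0.19 without it.

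Type VI collagen forms beaded filaments around cells. COL6A2 had values of 9.22, 9.27 and 9.19 on OXLDL arrays, against 9.47, 9.57 and 9.48 on CON arrays. The arrays did not overlap, and the difference of -0.28 (SE 0.07, adjusted p = 0.0658) was the nearest of the 50 to the threshold. It passed in 7 of the 14 alternatives, among them the fit without CON replicate 3 (adjusted p = 0.0386). COL6A1 had a difference of -0.05 (95% confidence interval -0.22 to 0.12), and COL6A3, COL6A5 and COL6A6 lay at or below the negative control level (-0.17, -0.0046 and -0.03).

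Of the membrane-spanning chains, COL23A1 had values of 8.58, 8.50 and 8.63 on OXLDL arrays, against 8.73, 8.82 and 9.05 on CON arrays (difference -0.30, adjusted p = 0.124). COL13A1 and COL25A1 had differences of 0.089 and -0.29, or 0.10 and -0.13 without CON replicate 3. COL18A1, which carries the endostatin fragment in a basement membrane proteoglycan, had 8.37, 8.28 and 8.49 on OXLDL arrays, against 7.89, 8.09 and 8.28 on CON arrays. The highest CON array lay at the level of the lowest OXLDL array (difference 0.29, adjusted p = 0.169, or 0.39 and adjusted p = 0.0501 without CON replicate 3). Its antisense RNA COL18A1-AS1 had a difference of -0.07 (adjusted p = 0.735), and 0.03 without CON replicate 3. COL15A1, the relative of COL18A1, had a difference of -0.19, and of -0.025 without CON replicate 3.

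COL28A1, a chain with von Willebrand factor A domains, had values of 6.85, 6.92 and 6.94 on OXLDL arrays, against 7.02, 7.27 and 7.37 on CON arrays (difference -0.31, adjusted p = 0.119). COL26A1 had 7.35, 7.29 and 7.38 on OXLDL arrays, against 7.45, 7.57 and 7.73 on CON arrays (difference -0.25, adjusted p = 0.150). Neither gene's arrays overlapped between the groups.

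**Figure D2:**
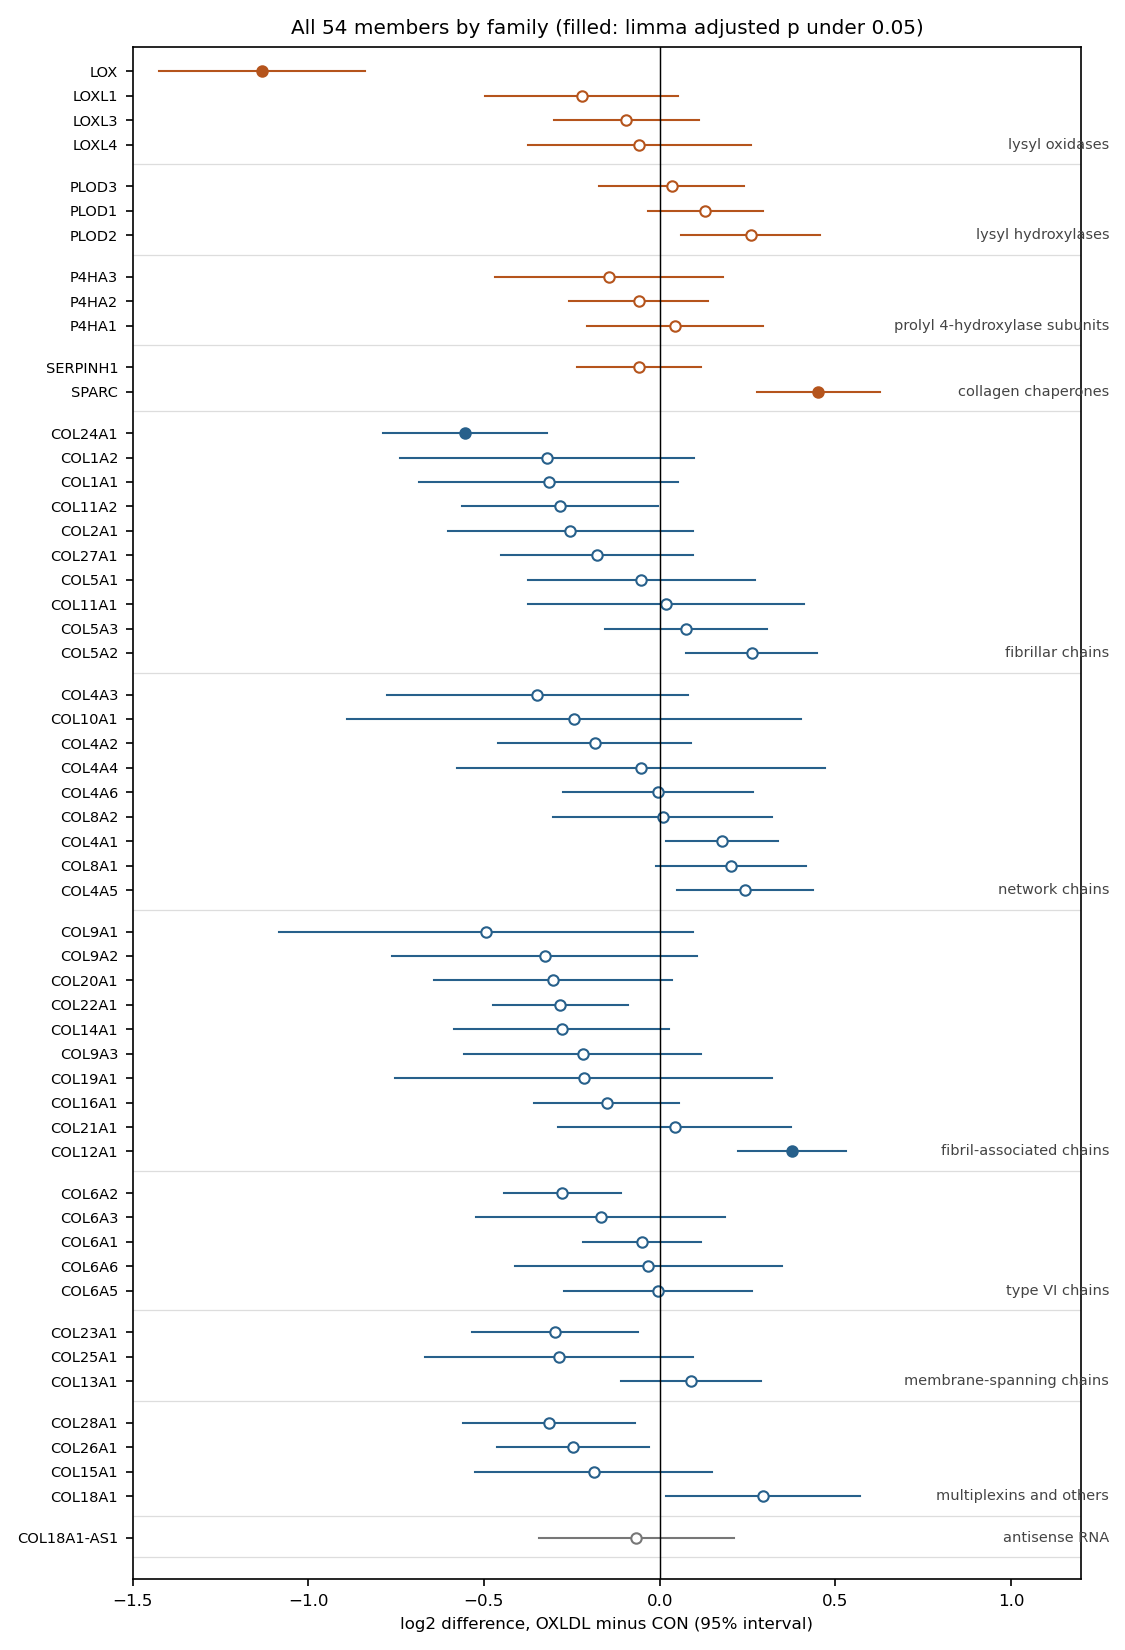
Log2 difference, OXLDL minus CON (horizontal axis), with its limma 95% confidence interval for each of the 54 members, grouped by family; filled points passed at an adjusted p under 0.05. LOX stands apart at -1.13, and the interval of every member except LOX reaches into the range between -0.50 and 0.50.

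Chains and modifying genes were set side by side. The median log2 difference was -0.18 over the 41 chains and -0.06 over the 12 enzyme and chaperone genes, against -0.03 over all tested probe sets. Differences were below 0 in 30 of 41 chains and in 7 of 12 enzyme and chaperone genes, against 55.1% of all probe sets. Array values did not overlap between the groups in 16 of 41 chains (5 higher and 11 lower) and in 4 of 12 enzyme and chaperone genes, against 36.8% of all probe sets. No test was made over members, which are not replicates.

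The lower median of the chains moved with 1 array. The mean log2 value over the 41 chains was 6.53, 6.53 and 6.53 on OXLDL arrays, against 6.53, 6.59 and 6.85 on CON arrays. Thus CON replicates 1 and 2 lay near the OXLDL arrays, and CON replicate 3 was the high one. CON replicate 3 was the highest of all 6 arrays for 26 of 41 chains, against 2 of 12 enzyme and chaperone genes and 36.4% of all probe sets. It lay above the mean of the other CON arrays for 35 of 41 chains, against 3 of 12 enzyme and chaperone genes and 54.7% of all probe sets. Without it the median difference of the chains was -0.06 and that of the enzyme and chaperone genes -0.08, against -0.01 over all probe sets, and 24 of 41 chains were below 0. The brighter G- and C-rich background probe sets on that array were given above, and their part in the chains' values was not tested. For 12 enzyme and chaperone genes the mean was 8.34, 8.25 and 8.32 on OXLDL arrays and 8.42, 8.39 and 8.31 on CON arrays.

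**Figure D3:**
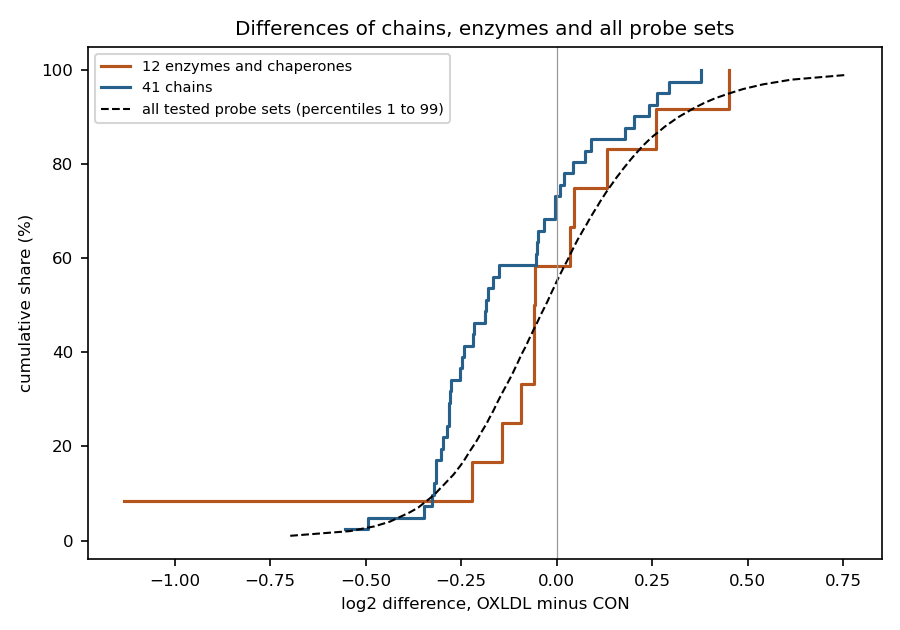
Cumulative share (vertical axis, %) of the log2 difference, OXLDL minus CON (horizontal axis), for 12 enzyme and chaperone genes, 41 chains and all tested probe sets. The chains lie to the left of all probe sets in the middle of the range, with a median of -0.18 against -0.03, and LOX forms the far left step of the enzymes.

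**Figure D4:**
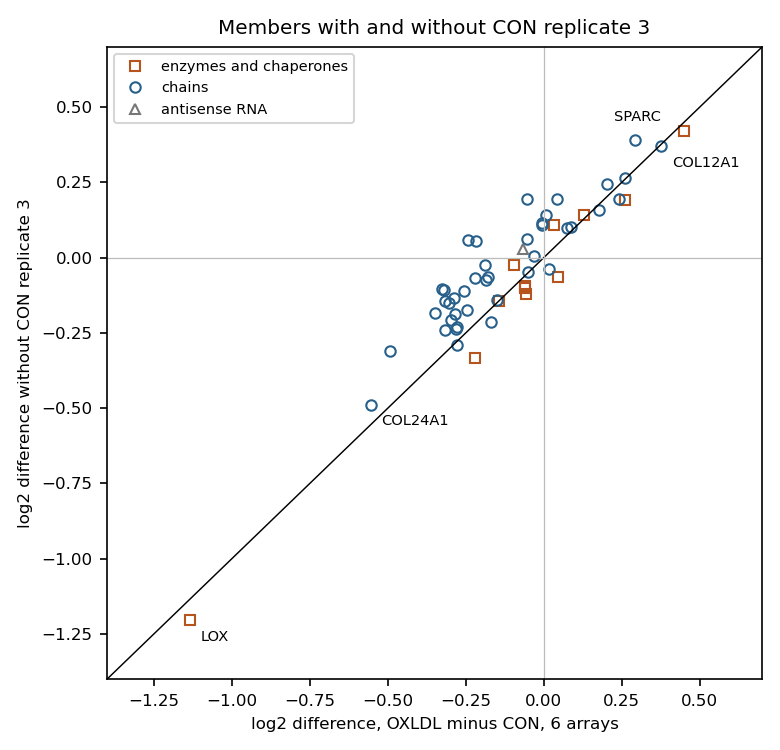
Log2 difference of each member with all 6 arrays (horizontal axis) and without CON replicate 3 (vertical axis), on the same scale with the line of equality. Above the line lie 35 of 41 chains, and the median of the chains is -0.18 with all arrays and -0.06 without that array. LOX (-1.13 and -1.20), SPARC (0.45 and 0.42), COL12A1 (0.38 and 0.37) and COL24A1 (-0.55 and -0.49) stay close to it.

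Without CON replicate 3, 6 members passed, against 12.4% of all probe sets: LOX (adjusted p = 0.00521), COL12A1 (0.0139), SPARC (0.0147), COL24A1 (0.0228), COL6A2 (0.0386) and LOXL1 (0.0456). The 4 calls made with all arrays were among them, in the same direction.

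Chains that assemble into the same collagen were compared within each array. COL4A1 and COL4A2 lie head to head on chromosome 13, their annotated starts 127 bases apart on opposite strands, and the promoter windows of 300 bases share 226. The COL4A1 window, chr13:110307108-110307407 (GRCh38.p14, minus strand), is shown because it serves both directions, with capitals for the same 5 motifs.
COL4A1: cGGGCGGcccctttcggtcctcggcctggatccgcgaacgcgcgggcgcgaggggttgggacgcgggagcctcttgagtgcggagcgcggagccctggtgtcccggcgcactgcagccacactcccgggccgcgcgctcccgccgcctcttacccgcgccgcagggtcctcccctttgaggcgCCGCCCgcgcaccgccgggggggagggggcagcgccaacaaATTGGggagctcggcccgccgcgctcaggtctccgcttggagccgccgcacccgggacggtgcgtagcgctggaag

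It held GGGCGG at 2 places and CCAAT, read on the opposite strand, at -26 from the start. COL4A1 minus COL4A2 was -1.62, -1.58 and -1.45 log2 units on OXLDL arrays, against -1.69, -1.87 and -2.17 on CON arrays. The ratio was thus higher by 0.36 on OXLDL arrays, with no overlap, and by 0.23 without CON replicate 3. COL6A2 minus COL6A1 was -0.73, -0.57 and -0.75 on OXLDL arrays, against -0.48, -0.41 and -0.49 on CON arrays, a shift of -0.23, also with no overlap (-0.24 without CON replicate 3). COL5A2 over COL5A1 and COL4A5 over COL4A6 shifted by 0.31 and 0.25 without overlap, and by 0.20 and 0.084 without CON replicate 3. COL1A1 minus COL1A2 averaged -0.994 ± 0.07 with OXLDL and -0.998 ± 0.09 in CON (SD, n = 3 each), and those arrays overlapped. COL8A1 over COL8A2 and COL4A3 over COL4A4 shifted by 0.19 and -0.29 with overlap, and by 0.10 and -0.38 without CON replicate 3. COL5A1, COL8A2 and COL4A3 lay below the negative control level in both groups, so these 3 ratios rest in part on background signal. A two-sided exact permutation test over arrays gave p = 0.1 for the 4 pairs that did not overlap, with an adjusted p of 0.175 over the 7 pairs. A p of 0.1 is the smallest this design allows and lies above the threshold used for calls, so no pair could pass. It restates the lack of overlap, and the pairs were compared after values were seen. Of single probe sets, 36.8% did not overlap between the groups, and the share among other pairs of genes was not measured. CON replicate 3 was the most extreme CON array for COL4A1 over COL4A2, COL4A5 over COL4A6 and COL5A2 over COL5A1.

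Genes that fold, secrete, process and bind collagen were read from 5 lists. The lists were written from general knowledge with earlier results of these data known, so their counts describe chosen genes. Whether the changes are particular to collagen, or belong to secretion and folding in general, was not tested. In procollagen secretion, 5 of 18 genes fell and 1 rose (median log2 difference -0.09), against 3.29% lower and 3.48% higher over all probe sets. SEC24D, a cargo-binding subunit of the COPII coat that carries procollagen out of the endoplasmic reticulum, had 10.60, 10.51 and 10.49 on OXLDL arrays, against 11.41, 11.37 and 11.30 on CON arrays. It fell by 0.82 (SE 0.07, limma adjusted p = 0.00234) and passed in each of the 14 alternatives. PREB (SEC12), which activates the SAR1 GTPase that starts the coat, fell by 0.43 (adjusted p = 0.0142). The inner coat subunit SEC23B fell by 0.38 (adjusted p = 0.0316), the exit site scaffold SEC16A by 0.36 (0.0330) and the outer coat subunit SEC13 by 0.34 (0.0367). KLHL12, the adaptor of the CUL3 ubiquitin ligase that enlarges the coat for procollagen, rose by 0.52 (adjusted p = 0.0288). MIA3 (TANGO1), the procollagen receptor at exit sites, and SURF4 had differences of -0.31 and -0.31 (adjusted p = 0.0531 and 0.0676). Without CON replicate 3 these 2 also passed, as did MIA2 (-0.94, adjusted p = 0.00421) and SEC31A (-0.31, 0.0338), and 9 of 18 were lower and 1 higher, against 5.69% lower and 6.76% higher of all probe sets in that fit. With all arrays the differences of MIA2 and SEC31A were -0.53 and -0.17 (adjusted p = 0.335 and 0.396). Of the 6 fits that each left out 1 array, PREB and KLHL12 passed in 2, and SEC23B, SEC16A and SEC13 in 1.

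In folding and modification, 2 of 16 genes fell and 0 rose, against 3.29% lower and 3.48% higher over all probe sets. HSPA5 (BiP), the general chaperone of the endoplasmic reticulum, fell by 0.71 (SE 0.07, limma adjusted p = 0.00363). FKBP14, a prolyl isomerase that acts on procollagen, fell by 0.60 (SE 0.07, adjusted p = 0.00601). The prolyl 3-hydroxylase P3H2 and the isomerase FKBP7 had differences of 0.31 and 0.60 (adjusted p = 0.0888 and 0.113). Of 10 genes for the trimming of propeptides and for copper supply to lysyl oxidases, 0 passed in limma. An unadjusted p under 0.05 was found for 5 of them, against 26.1% of all probe sets. The median difference of the list was -0.015. PCOLCE2 passed as higher without CON replicate 3. PCOLCE was lower, with a difference of -0.55 (SE 0.20, adjusted p = 0.146), or -0.31 without that array (adjusted p = 0.0633). ADAMTS3 had a difference of 0.80 (SE 0.31, adjusted p = 0.164). TLL1, a propeptide protease at or below the negative control level in both groups, had a difference of 0.74 (SE 0.22, adjusted p = 0.0934). ATP7A, the copper pump of the secretory pathway, had a difference of 0.40 (SE 0.13, adjusted p = 0.124).

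Of 11 collagen receptors and uptake genes, 2 fell, against 3.29% of all probe sets. ADGRG1, an adhesion receptor with a collagen ligand, had 8.52, 8.36 and 8.41 on OXLDL arrays, against 9.21, 9.18 and 9.04 on CON arrays, and fell by 0.71 (SE 0.08, limma adjusted p = 0.00549). ITGA2, the collagen-binding integrin α2 subunit, had 9.17, 9.08 and 8.89 on OXLDL arrays, against 9.73, 9.75 and 9.61 on CON arrays, and fell by 0.65 (SE 0.10, adjusted p = 0.0130). The receptor kinase DDR2 and the protease CTSK had differences of -0.52 and 0.36 (adjusted p = 0.0803 and 0.158). Among 23 collagen-associated matrix proteins 3 rose, against 3.48% of all probe sets. THBS1 (thrombospondin-1) rose by 1.25 (SE 0.09, limma adjusted p = 0.00117), with 11.53, 11.60 and 11.55 on OXLDL arrays, against 10.24, 10.24 and 10.46 on CON arrays. NID1 (nidogen-1), which links laminin to type IV collagen, rose by 0.42 (adjusted p = 0.0210) and FBN1 (fibrillin-1) by 0.47 (adjusted p = 0.0485). FMOD and THBS2 had differences of -0.41 and -0.36 (adjusted p = 0.0586 and 0.0849). Of the 6 fits that each left out 1 array, FKBP14 passed in 5, ITGA2 in 3, and NID1 and FBN1 in 1. The calls of ADGRG1, THBS1 and HSPA5 were lost in none of the alternatives. Without CON replicate 3, THBS2 (-0.43, adjusted p = 0.0281) and TNC, tenascin-C (-0.51, 0.00999), passed as lower. With all arrays TNC had a difference of -0.31 (adjusted p = 0.280).

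**Figure D5:**
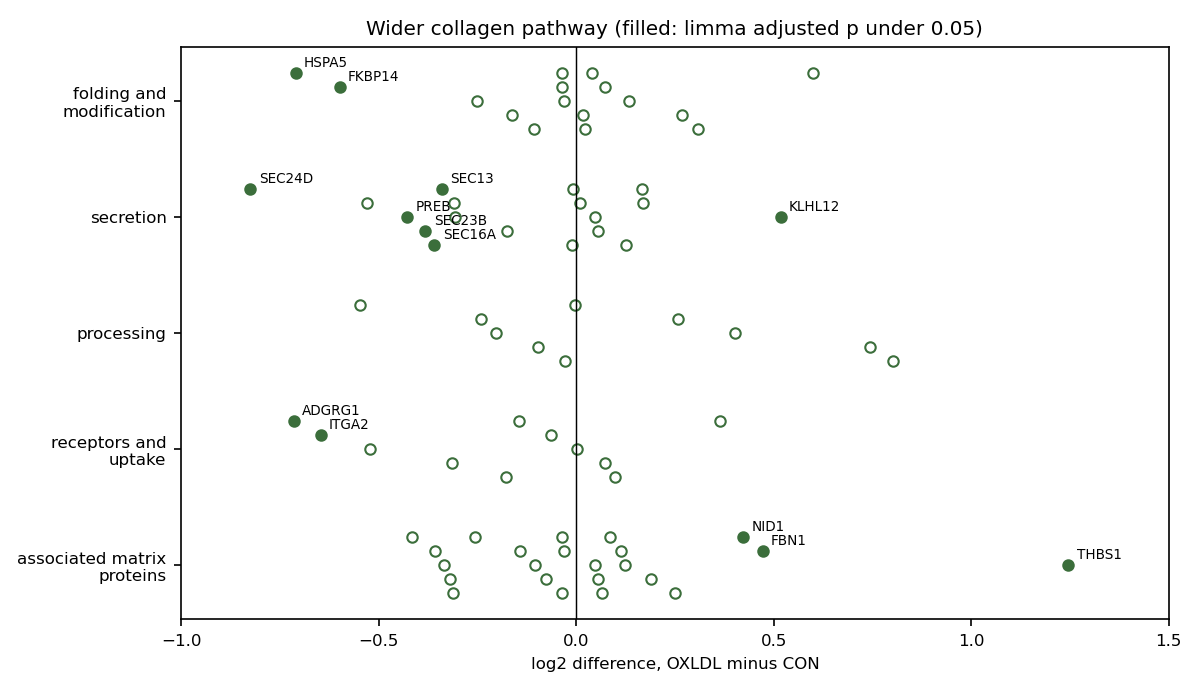
Log2 difference, OXLDL minus CON (horizontal axis), of each measured gene in 5 lists of the collagen pathway (vertical axis); filled, named points passed at an adjusted p under 0.05. Secretion genes that passed lie at -0.82 to -0.34 apart from KLHL12 at 0.52, and THBS1 lies farthest right at 1.25.

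Precision set what could be seen. For 40 of the 54 members, 74.1%, the 95% confidence interval lay within 1.5-fold in either direction, against 73.6% of all probe sets. Standard errors of members ran from 0.07 to 0.27 on the log2 scale, and 12 members lay at or below the negative control level in both groups.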

How the data were processed

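RNA of 6 samples of T24 cells was measured on 1 array each, labelled per the labels' protocols from 500 ng of total RNA. The deposited values are on the log2 scale, from the authors' RMA step (named in the submitters' processing notes). In its usual form that step makes array distributions equal and pulls dim values together, so changes of total RNA are not seen and those of dim genes are understated. The sources used here name no version, genome build or annotation for it. The table held 24350 probe sets. The 2902 controls were left out, and 17709 of the 21448 tested had 1 gene symbol in the platform annotation, 0 several and 3739 none. Groups followed the titles. One limma fit (lmFit and eBayes, limma 3.58.1, R 4.3.3) over all 6 arrays gave OXLDL minus CON, with two-sided p-values adjusted by Benjamini-Hochberg over all tested probe sets and called under 0.05. The fit was tested on simulated data that gave both groups the spread of the OXLDL arrays. Those data held no array that stands apart as CON replicate 3 does. Errors are SD over arrays or limma standard errors. Deviations of same-numbered arrays from their group means had correlations of -0.01, 0.03 and 0.02. With 3 arrays a group these cannot exclude a pairing by replicate number. The main fit used no pairing, and a replicate block was 1 of the alternatives. The members, lists and motifs were chosen with earlier results of these data known. Members that passed, and the 12 next by p, have their array values given; of each wider list those that passed (at most 6) and the 2 next by p are named. COL1A1, LOXL1, PCOLCE, ADAMTS3, genes that passed only without CON replicate 3 and the bound for COL24A1 were added after values were seen. So were the within-array comparisons of chains (also without that array). Alternatives are described with their effects in the closing section. Figures were drawn with matplotlib 3.10.9.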

Additional observations from a re-analysis of the deposited data

How the results depend on the processing

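LOX, HSPA5, SEC24D, ADGRG1 and THBS1 passed in each of the 14 alternatives, whereas SPARC, COL12A1 and COL24A1 passed in 9 of 14, 8 of 14 and 8 of 13, with no change of sign. Counts of probe sets that were higher and lower (746 and 705) became 2140 and 1822 with array weights, 244 and 306 with a replicate block, 128 and 254 at an adjusted p under 0.01, and 215 and 281 under the design text's selection. They ran from 93 to 1450 and from 212 to 1220 when 1 array was left out; those higher numbered 1608 with an intensity trend and robust fit and 1571 among probe sets above the median level. Chains higher and lower (1 and 1) became 3 and 5 with weights, 0 and 0 at 0.01 and under the selection, and 0 to 1 and 0 to 2 with 1 array left out. Chains higher were 0 with the block, 4 among brighter probe sets and 2 with an unmoderated t statistic, and chains lower were 2 with cyclic loess, a second quantile normalization and the trend. Enzyme and chaperone genes higher (1) were 2 with weights, the trend and brighter probe sets, 0 with the block, at 0.01 and under the selection, and 0 to 1 with 1 array left out; those lower (1) were 2 with weights and 1 to 2 with 1 array left out. In the wider lists, 4 higher and 9 lower became 8 and 17 with weights, 1 and 5 with the block, 1 and 4 at 0.01, 1 and 5 under the selection, and 1 to 5 and 3 to 15 with 1 array left out. The block lost the calls of SPARC (adjusted p = 0.0681) and COL12A1 (0.0903). The enzyme median (-0.058) was 0.039 among brighter probe sets and -0.078 to 0.020 with 1 array left out. The cause of these changes was not tested.

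Signs turned only for members that did not pass. With weights, COL4A4, COL6A5, COL6A6, COL19A1, COL5A1, COL4A6 and P4HA1 had 0.16, 0.094, 0.070, 0.0019, 0.12, 0.080 and -0.035. With cyclic loess, LOXL3, COL4A4, COL6A5, COL6A6, PLOD3, COL5A1, COL4A6, P4HA1, LOXL4 and COL18A1-AS1 had 0.0058, 0.061, 0.033, 0.014, -0.014, 0.021, 0.11, -0.016, 0.031 and 0.048. With the second quantile normalization, COL4A4, COL6A5, COL6A6, PLOD3, COL5A1, COL4A6, LOXL4 and COL18A1-AS1 had 0.024, 0.021, 0.0018, -0.022, 0.013, 0.081, 0.024 and 0.017. With equal array medians, COL6A5 and COL4A6 had 0.026 and 0.025. With 1 array left out, log2 differences ran from -0.066 to 0.14 for COL8A2, -0.11 to 0.19 for COL11A1, -0.18 to 0.20 for COL4A4, -0.071 to 0.12 for COL6A5, -0.19 to 0.091 for COL6A6, -0.092 to 0.0026 for P4HA2, -0.38 to 0.057 for COL19A1, -0.065 to 0.19 for COL21A1, -0.54 to 0.057 for COL10A1, -0.0091 to 0.11 for PLOD3, -0.19 to 0.061 for COL5A1, -0.077 to 0.11 for COL4A6, -0.063 to 0.11 for P4HA1, -0.14 to 0.083 for LOXL4, -0.25 to 0.011 for P4HA3, -0.0085 to 0.14 for COL5A3 and -0.17 to 0.030 for COL18A1-AS1. Dim probe sets limit these: 12 members were at or below the negative control level in both groups.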
